A study of Mus musculus with 18 samples.

Results

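Of the 18 RNA-seq libraries in the series, 6 compared S6K1/S6K2 double knockout (DKO) with wild-type (WT) mouse embryonic fibroblasts (MEFs) under the same oncogenic stress. They were 3 libraries termed DKO RAS here (KO in the labels) and 3 termed WT RAS. MEFs are primary cells grown from minced mid-gestation embryos, here without head and viscera, of C57BL/6 mice. Both groups carried a retroviral vector for constitutively active HRAS, and they differed by germline loss of S6K1 and S6K2. Another group of the same breeding series, WT MEFs with an empty vector (WT EV, 3 libraries), entered the fit for its spread and is given as the level without RAS. No DKO library with the empty vector was analysed here. Per the methods of the study, DKO embryos came from crosses of S6K1 heterozygous, S6K2 null parents, and the WT embryos came from WT mothers at an earlier breeding step. Genotype, mother and line therefore cannot be told apart in this comparison. The labels do not say which embryo gave which library, so the p-values measure the spread between these libraries. WT EV and WT RAS libraries carry the same numbers, and the fit did not pair them. Any line that they share therefore enters the spread in both groups.

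S6K1 and S6K2 are protein kinases encoded by Rps6kb1 and Rps6kb2. They are switched on by the mTOR complex when nutrients and growth factors are plentiful, and they phosphorylate ribosomal protein S6 and other regulators of translation and growth. Primary fibroblasts that carry oncogenic RAS stop dividing for good and become senescent, and in this state they secrete cytokines, chemokines and proteases (the senescence-associated secretory phenotype, SASP). Primary MEF cultures can also hold embryonic macrophages, which express many of the same inflammatory genes.

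Total counts were between 8319445 and 11077111 in WT RAS and between 9952697 and 10927622 in DKO RAS. Levels are given as CPM, counts scaled to the TMM-adjusted library size, and a fold change is on the log2 scale as DKO RAS against WT RAS unless stated otherwise. In a principal component analysis of the 6 libraries, the first component (41.0% of the variance) parted library 1 of each group from the rest, and WT and DKO were parted by the third component (14.7%). Library 1 was also the library of each group with Xist, the transcript of the inactive X chromosome, at 349 CPM for WT RAS and 348 CPM for DKO RAS, against at most 4.73 CPM in the other 4 libraries. The Y-linked gene Ddx3y was at 0.108 CPM in WT RAS library 1 and at 3.77 CPM in DKO RAS library 1, against 90.0 to 109 CPM in the others. The summed macrophage markers were highest in library 1 of both groups as well, so values without library 1 of both groups are given for the lists and genes that differed most with it.

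The targeted genes were lower in every DKO library. Rps6kb2 was at 24.5, 24.1 and 28.9 CPM in WT RAS and at 2.68, 3.04 and 2.80 CPM in DKO RAS. That is a log2 fold change of -3.18 ± 0.17 (SE), or 9.08-fold lower, with an adjusted p of 7.44e-05 by edgeR's quasi-likelihood test. Rps6kb1 was at 75.5, 83.7 and 82.7 CPM in WT RAS and at 34.5, 39.7 and 38.2 CPM in DKO RAS, a log2 fold change of -1.11 ± 0.11 (adjusted p = 0.00908). Neither gene's groups overlapped, and the WT EV libraries (83.3 to 91.1 CPM for Rps6kb1, 24.4 to 30.6 CPM for Rps6kb2) were close to WT RAS. Rps6kb1 transcript was 2.15-fold lower in DKO and remained detectable in all 3 libraries. Leaving out 1 library kept the Rps6kb2 call each time, whereas the adjusted p of Rps6kb1 was 0.0295 without WT RAS library 1 and 0.0700 to 0.116 without any of the other 5. Gene counts do not show which exons the remaining reads came from. In GRCm38.p6, Rps6kb1 lies on chromosome 11 (86498869 to 86544885) and Rps6kb2 on chromosome 19 (4156792 to 4163383).

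Beyond the targeted kinases, few genes differed between DKO and WT cells by more than the spread of the libraries. Of 13881 genes tested, 3 had an adjusted p under 0.05 (0.0216%), Rps6kb2, Rps6kb1 and an identifier without a symbol, ENSMUSG00000093483. At an unadjusted p under 0.05 there were 179 genes, 54 of them higher in DKO (0.389% of those tested) and 125 lower (0.901%). The 3 DKO libraries lay wholly above the 3 WT libraries for 419 genes (3.02%) and wholly below them for 424 (3.05%). The study's tool, DESeq2, called 10 genes, the 3 named above together with En2, Man1a2, Slfn2, Slfn8, Slfn10-ps, Dhx40 and 4632419I22Rik. The median standard error was 0.21 on the log2 scale. For 10394 genes (74.9%) the 95% interval lay within a 2-fold change either way. Changes smaller than these intervals were not detectable with 3 libraries a group and the spread between them.

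**Figure D1:**
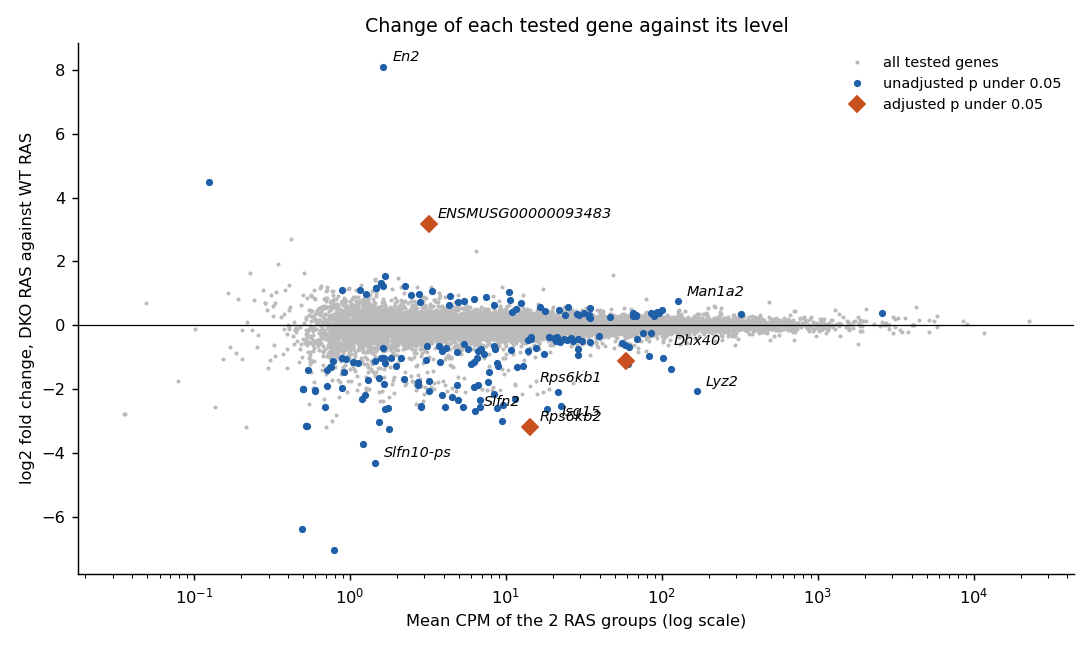
Log2 fold change (DKO RAS against WT RAS) of each of the 13881 tested genes against its mean CPM in the 2 RAS groups (log axis). Blue points have an unadjusted p under 0.05 (179 genes) and orange diamonds an adjusted p under 0.05 (3 genes); most genes lie near 0, and more blue points lie below 0 (125) than above it (54).

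Among genes higher in DKO, ENSMUSG00000093483 was the one that passed the adjusted threshold. It was at 0.648, 0.476 and 0.741 CPM in WT RAS and at 4.56, 6.69 and 6.05 CPM in DKO RAS, a log2 fold change of 3.18 ± 0.39 (adjusted p = 0.0491). The gene table used here gives neither a name nor a position for it. The call was close to the threshold: leaving out any 1 of the 6 libraries moved the adjusted p to between 0.124 and 0.398.

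En2, which encodes a homeobox transcription factor of the developing midbrain and hindbrain, had no count in any WT RAS library. In the DKO RAS libraries it was at 3.17, 2.84 and 3.79 CPM. Against the limit that a count of 0 allows (3 counts in a library, 0.278 to 0.357 CPM in WT RAS), En2 was at least 9.14-fold higher in DKO (adjusted p = 0.0659). It had no count in the WT RAS or S6K1 knockout (KO) RAS libraries of the S6K1 series, so reads at this locus were seen in the DKO libraries and, at 1 library of WT EV, at 0.0873 CPM. Man1a2, a Golgi mannosidase that trims N-linked glycans, was at 81.3, 96.1 and 106 CPM in WT RAS and at 157, 168 and 151 CPM in DKO RAS. Its log2 fold change was 0.75 ± 0.14 (adjusted p = 0.642 by edgeR and 0.0166 by DESeq2), and the groups did not overlap.

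The other higher genes with the lowest p were of smaller size or lower level. The long non-coding transcript 1500012F01Rik had a log2 fold change of 0.55 ± 0.16, Tbx2, a T-box repressor known to restrain senescence, one of 0.80 ± 0.23, and C030037D09Rik one of 0.82 ± 0.26. Rps6-ps3, a pseudogene of the S6 kinases' substrate Rps6, had a log2 fold change of 1.16 ± 0.35, with WT RAS between 0.715 and 1.11 CPM and DKO RAS between 1.88 and 2.23 CPM. Its reads can be shared with the parent gene. For 2410004N09Rik the log2 fold change was 0.71 ± 0.22, and for a further identifier without a symbol, ENSMUSG00000104960, it was 0.57 ± 0.17. None of these had an adjusted p under 0.05, and none had groups that overlapped. Over all tested genes, 3.02% lay wholly higher in DKO. These genes, like Man1a2, were picked by p in the same libraries, so the lack of overlap adds no separate support.

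**Figure D2:**
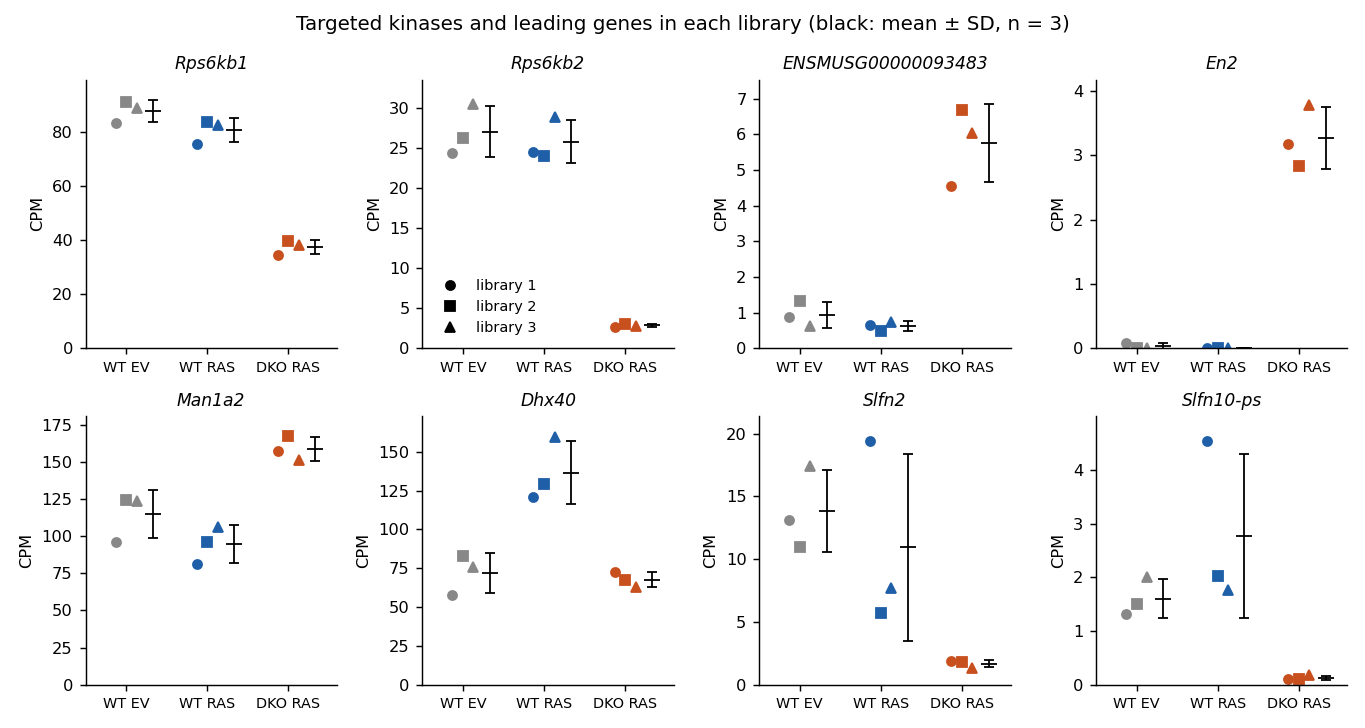
CPM of the 2 targeted kinases and 6 further genes in each library of WT EV (grey), WT RAS (blue) and DKO RAS (orange); symbols mark libraries 1, 2 and 3, and black bars the mean ± SD (n = 3). All DKO RAS points lie apart from the WT RAS points in each panel, and for Slfn2 and Slfn10-ps the WT RAS spread is set by library 1.

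Several of the genes that differed most were neighbours of Rps6kb1 on chromosome 11. The window of 1 Mb around Rps6kb1 held 20 other tested genes, of which 4 (20%) had an unadjusted p under 0.05. Over all genes outside 5 Mb windows around both targeted genes, the share was 1.20%. Dhx40, a putative RNA helicase, was at 121, 129 and 159 CPM in WT RAS and at 72.5, 67.2 and 62.8 CPM in DKO RAS, a log2 fold change of -1.02 ± 0.16 (adjusted p = 0.206 by edgeR). In WT EV it was at 57.9 to 82.8 CPM, near the DKO RAS level. The uncharacterized gene 4632419I22Rik was at 78.4, 72.5 and 77.4 CPM in WT RAS and at 43.6, 49.3 and 49.8 CPM in DKO RAS (a log2 fold change of -0.68 ± 0.13). Ypel2 had a log2 fold change of -0.71 ± 0.26, and Tbx2, the other of the 4, one of 0.80 ± 0.23. None of the 4 had groups that overlapped, but these genes were picked by p. Groups did not overlap for 25% of the genes in this window against 5.96% outside the 5 Mb windows.

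A wider window of 5 Mb, chosen after the values were seen, held 87 other tested genes, and 14 of them (16.1%) had an unadjusted p under 0.05, 11 lower and 3 higher. The share over all genes outside the windows around both targeted genes was 1.20%. Groups did not overlap for 25.3% of the genes in this window against 5.96% outside. Around Rps6kb2 on chromosome 19, none of 162 tested genes within 5 Mb had an unadjusted p under 0.05. The count around Rps6kb1 was 13 to 16 when any 1 of the 6 libraries was left out.

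The schlafens, a family of growth-regulatory and interferon-inducible genes, and the chemokines Ccl6 and Ccl9 sit together in that window, at -3.57 to -2.93 Mb from Rps6kb1. Slfn2 was at 19.4, 5.72 and 7.69 CPM in WT RAS and at 1.88, 1.82 and 1.35 CPM in DKO RAS (a log2 fold change of -2.69 ± 0.47, adjusted p = 0.369 by edgeR). Slfn10-ps, a pseudogene, was at 4.54, 2.02 and 1.76 CPM in WT RAS and at 0.0991, 0.101 and 0.180 CPM in DKO RAS. From 78 counts against 4, its level was 21.3-fold lower in DKO (exact 95% interval 7.98 to 80.0, covering counting error only). Slfn8 had 44 counts in WT RAS, at 3.67, 0.476 and 0.556 CPM, and none in DKO RAS, which makes it at least 5.16-fold lower. All 5 tested schlafens of 8 listed were lower in DKO, with a median log2 fold change of -2.69 (-2.37 with Slfn8 at its bound). For 4 of the 5 the groups did not overlap, against 3.05% of all tested genes that lay wholly lower in DKO. Without library 1 of both groups the median was -2.08 and all 5 were still lower, although WT RAS library 1 had the highest schlafen sum (46.5 CPM against 15.2 and 15.8 CPM in WT RAS libraries 2 and 3). Paralogues of this family are similar in sequence, and single-end reads can be split between them.

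Also in this window, Acaca, the rate-limiting enzyme of fatty acid synthesis, was at 22.4, 27.7 and 23.6 CPM in WT RAS and at 16.0, 19.9 and 16.4 CPM in DKO RAS. Cuedc1 ranged from 60.5 to 62.0 CPM in WT RAS, below the 74.8 to 77.3 CPM of DKO RAS. The predicted gene Gm15698 had 29 counts over the WT RAS libraries and 0 over the DKO RAS libraries, at least 3.22-fold lower. These 3 genes were named after their values were seen.

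The S6K1 series, with separate KO and WT embryos of its own under RAS and no library in common, had lower and higher genes at the same places in this window. All 14 genes had the same sign there, and 12 of the 14 had an unadjusted p under 0.05. In that series 230 of 14036 genes were higher in KO at this threshold (1.64%) and 733 lower (5.22%). Dhx40 had a log2 fold change of -1.08 ± 0.10 in S6K1 KO (adjusted p = 0.0168), 4632419I22Rik of -0.64 ± 0.10, Slfn2 of -2.69 ± 0.60 and Rps6kb1 of -1.17 ± 0.17. ENSMUSG00000093483 was higher there too, by 2.77 ± 0.32. Both DKO and S6K1 KO cells carry the targeted Rps6kb1 allele with the chromosome segment around it. Loss of the kinase and a difference in the neighbouring chromosome segment cannot be told apart in these libraries.

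**Figure D3:**
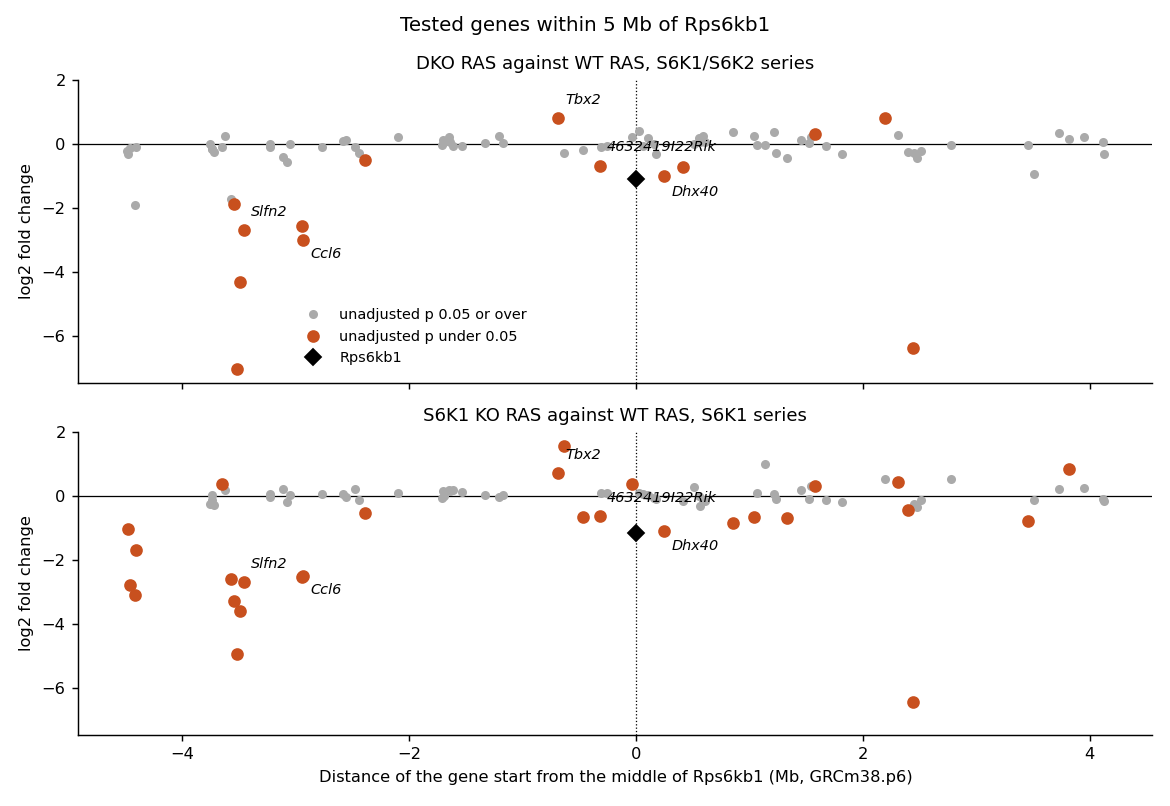
Log2 fold change of the tested genes against the distance of their start from the middle of Rps6kb1 (Mb), for DKO RAS against WT RAS (upper panel) and for S6K1 KO RAS against WT RAS of the separate S6K1 series (lower panel). Orange points have an unadjusted p under 0.05 (14 genes in the upper panel and 28 in the lower), grey points do not, and the black diamond is Rps6kb1; the genes near -3 Mb (Slfn2, Ccl6 and others) and Dhx40 lie low in both panels, and the fitted values of Slfn8 and Gm15698, at 0 in DKO, depend on the prior count.

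Macrophage marker transcripts varied widely between these cultures, and among the 6 RAS libraries their sum was highest in WT RAS library 1. Summed over the 25 macrophage markers with an identifier, the level was 1312, 233 and 345 CPM in WT RAS against 336, 101 and 129 CPM in DKO RAS. The WT EV libraries ranged from 215 to 1969 CPM. Library 1 was the highest of each group. Compared number by number, WT exceeded DKO by 3.90-fold in library 1 and by 2.51-fold over the other libraries, but the groups overlapped, with DKO library 1 between WT libraries 2 and 3. In bulk RNA, fewer macrophages and less RNA per macrophage cannot be told apart.

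The defining macrophage genes were also highest in library 1 of each group. Lyz2, which encodes lysozyme, was at 551, 104 and 156 CPM in WT RAS and at 123, 29.4 and 42 CPM in DKO RAS (a log2 fold change of -2.06 ± 0.92, adjusted p = 1.00). C1qa, a subunit of complement C1q, was at 67.5, 4.53 and 12.4 CPM in WT RAS and at 12.3, 2.33 and 5.41 CPM in DKO RAS. Csf1r, the receptor for macrophage colony-stimulating factor, was at 34.5, 3.81 and 5.74 CPM against 7.33, 1.32 and 2.08 CPM. In all 3 genes, WT library 1 was several times above every other library and the groups overlapped. Adgre1 (Emr1, the F4/80 antigen), Ptprc (CD45) and Tyrobp had log2 fold changes of -1.88 ± 1.22, -1.95 ± 1.06 and -1.62 ± 1.18. None of these 6 markers was at 0 in any of the 6 libraries. Cd68 was an exception in DKO RAS, where library 1 had 24.1 CPM against 28.8 and 29.9 CPM in libraries 2 and 3. Fcgr1 was at 0 in 1 DKO RAS library, and Cd163 and Timd4 of the list had no count in any library of the 2 groups.

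All 22 tested macrophage markers were lower in DKO, with a median log2 fold change of -1.91 against -0.00029 over all tested genes, and 3 of the 22 (Pf4, Fcgr1 and Lyz2) had an unadjusted p under 0.05, against 0.901% of all tested genes that were lower at this threshold. The values turned on library 1. The median was -0.44 without WT RAS library 1, -3.05 without DKO RAS library 1, and -1.60 without both, when again all 22 were lower. A further fit of the 9 libraries had sex, read from Xist, as an added term. It pools the difference between DKO and WT within library 1 with that within the other libraries. In that fit 20 of the 22 were lower with an unadjusted p under 0.05, as were 1.81% of all genes. That term and the number 1 mark the same libraries. In the S6K1 series all 23 tested markers were also lower in KO, with a median of -2.17.

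Several of the lower genes with the lowest p are known from myeloid cells. Clec4n, the receptor Dectin-2, was at 15.3, 3.69 and 3.15 CPM in WT RAS and at 2.18, 1.52 and 0.993 CPM in DKO RAS (a log2 fold change of -2.24 ± 0.62). Siglec1, a sialic acid receptor of macrophages, was at 10.4, 1.79 and 2.41 CPM against 1.29, 0.608 and 0.632 CPM. Ccl6 was at 29.7, 9.41 and 11.4 CPM in WT RAS and at 5.05, 0.507 and 0.722 CPM in DKO RAS, and Ccl9 was at 30.7, 5.72 and 8.52 CPM against 5.25, 0.811 and 1.44 CPM. These 4 genes had groups that did not overlap, against 3.05% of all tested genes that lay wholly lower in DKO. They were picked by p in the same libraries, so the lack of overlap adds no separate support. Like the macrophage sum, each was highest in library 1 of its group. Without library 1 of both groups the log2 fold changes of Clec4n, Siglec1, Ccl6 and Ccl9 were -1.45, -1.75, -4.05 and -2.64. The part of macrophage content in their levels was not tested. Ccl6 and Ccl9 also lie in the window around Rps6kb1, so both descriptions hold for them.

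Fibroblast markers overlapped between the groups. Their sum ranged from 27698 to 31068 CPM for WT RAS and from 25339 to 28473 CPM for DKO RAS, against 47613 to 61036 CPM in WT EV. The defining genes Col1a1, Col1a2, Col3a1, Pdgfra and Thy1 had log2 fold changes of -0.25, -0.13, -0.01, 0.04 and -0.04, and none of the 14 markers had an unadjusted p under 0.05. Summed epithelial, skeletal muscle, endothelial and neural markers were at 250.6 CPM or less in every RAS library of the 2 groups and overlapped between them, and erythroid, lymphoid and mast cell markers at 1.43 CPM or less. One epithelial keratin, Krt7, was at 1.95, 4.41 and 3.80 CPM in WT RAS and at 0.892, 1.62 and 0.632 CPM in DKO RAS (a log2 fold change of -1.69 ± 0.47).

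**Figure D4:**
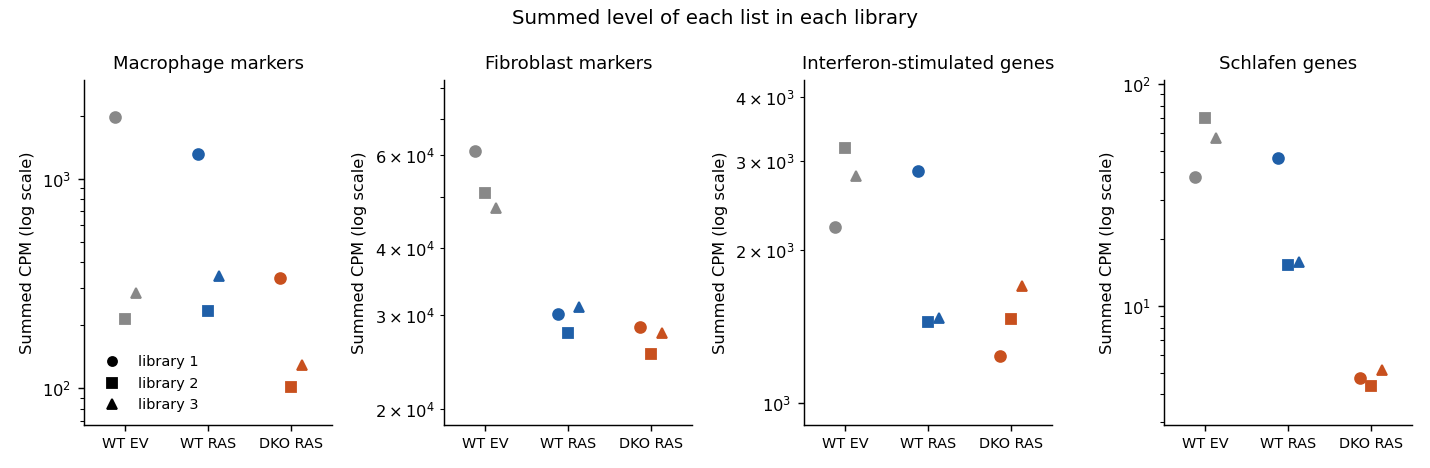
Summed CPM (log axes) of 4 gene lists in each library of WT EV (grey), WT RAS (blue) and DKO RAS (orange); symbols mark libraries 1, 2 and 3. Library 1 holds the most macrophage marker counts in every group, interferon-stimulated genes are high in WT RAS library 1 alone among the RAS libraries, and the schlafens of all 3 DKO libraries (4.36 to 5.14 CPM) lie below all WT libraries.

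Type I interferon-stimulated genes, which cells switch on after sensing nucleic acids or secreted interferon, were set apart by 1 WT library. Their promoters often carry the interferon-stimulated response element. The letters GAAA, any 2 bases and GAAA again, searched on both strands of RefSeq promoter windows (GRCm38.p6, 250 bases before to 50 after each start), were found in 15 of the 37 tested list members with a window (40.5%) and in 3.67% of the tested genes with one. The match is shown for the 4 matching members with the lowest p for which it lay wholly before the start, with the matched letters in capitals (TTTC, 2 bases and TTTC where the match is on the other strand) and each stretch read on the strand of its gene:
Trim30a: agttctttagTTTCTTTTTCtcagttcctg
Isg15: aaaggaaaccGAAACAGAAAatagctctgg
Ddx60: gtgatgaatgGAAACCGAAActtaaagctt
Ifit1: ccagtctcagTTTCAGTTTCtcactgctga

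These stretches of 30 bases lie at chr7:104465210-104465239, chr4:156200865-156200894, chr8:61928024-61928053 and chr19:34640794-34640823 (strands -, -, + and +), and the match begins 36, 66, 53 and 85 bases before the start of the gene. The Isg15 window holds 3 matches, one of which overlaps the match shown. Isg15, Ddx60 and Ifit1, like Slfn8 and Eef2k elsewhere, were named after their values were seen. Of the list members with a window, the 15 with a match had a median log2 fold change of -1.27 (-2.61 to 0.19, 14 lower). The 22 without a match had a median of -0.74 (-2.55 to 0.76, 21 lower), so the ranges were much alike. The median of the whole list was between -1.41 and -0.19 with 1 library left out, and the split was not tested in that way.

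Most members had a lower fitted level in DKO. Of 57 listed genes 51 were tested, 48 were lower and 3 higher, the median log2 fold change was -1.10, and 21 had an unadjusted p under 0.05, all lower (0.901% of all tested genes). Trim30a, a regulator of innate signalling, was at 17.0, 2.14 and 1.85 CPM in WT RAS and at 0.991, 0.710 and 1.80 CPM in DKO RAS (a log2 fold change of -2.55 ± 0.86). Isg15, a ubiquitin-like modifier, was at 79.2, 8.69 and 6.76 CPM in WT RAS and at 3.96, 3.14 and 8.21 CPM in DKO RAS. In both genes WT RAS libraries 2 and 3 were nearer to the DKO libraries than to WT library 1, which lay far above all of them. Oas2, an activator of RNase L, had 27 counts in WT RAS and 3 in DKO RAS, a 9.82-fold lower level (exact interval 3.02 to 50.6, counting error only). Without library 1 of both groups this was 8 counts against 3, or 2.91-fold (0.698 to 17.0). Ifitm1 and Ifitm2, which restrict virus entry, had log2 fold changes of 0.76 ± 0.38 and 0.19 ± 0.20.

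Leaving out WT RAS library 1 took the median of this list from -1.10 to -0.19, and no member then had an unadjusted p under 0.05. Without library 1 of both groups it was -0.13, with 33 of 51 members lower and again no member under the threshold. Only 7 of the 51 members had a 95% interval within a 2-fold change. Without RAS, the sum over the list in the WT EV libraries (2217 to 3173 CPM) was above that of WT RAS libraries 2 and 3 (1442 and 1472 CPM), and WT RAS library 1 stood at 2861 CPM. The DKO RAS libraries were at 1236, 1467 and 1702 CPM. WT RAS library 1, the library with the most interferon-stimulated transcripts among the 6, was also the one with the most macrophage marker counts, and the part of the macrophage content was not tested. DKO library 1, with the most macrophage marker counts of its group, had the lowest sum of this list.

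Interferon-inducible GTPases and other immune lists followed WT library 1 in the same way. Of 12 tested GTPases and their regulators 11 were lower, with a median of -1.09 that became -0.14 without library 1 of both groups. Gbp3 was at 22.4, 3.93 and 3.52 CPM in WT RAS and at 2.68, 0.710 and 4.24 CPM in DKO RAS. For the 24 tested DNA-sensing genes the median was -0.21 (0.06 without both), and 4 had an unadjusted p under 0.05, all lower (0.901% of all tested genes). They include Ifih1, the RNA sensor MDA5, at 34.0, 9.77 and 10.7 CPM in WT RAS against 8.82, 5.68 and 8.12 CPM in DKO RAS, and Irf7, the interferon-amplifying factor, at 26.1, 4.17 and 5.37 CPM against 2.68, 2.84 and 4.87 CPM. MHC class I genes had a median of -0.29 (0.07 without both), with the peptide transporter Tap1 at 53.6, 33.5 and 34.4 CPM against 22.1, 28.1 and 34.8 CPM. Without library 1 of both groups the log2 fold changes of Gbp3, Ifih1, Irf7 and Tap1 were -0.57, -0.58, -0.31 and -0.11, and none had an unadjusted p under 0.05.

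The adaptor and transcription factor of the DNA-sensing route did not differ beyond the spread of the libraries. Irf3, the transcription factor that starts the interferon response, was at 45.7, 47.9 and 41.1 CPM in WT RAS and at 37.7, 46.4 and 54.1 CPM in DKO RAS, a log2 fold change of 0.04 with a 95% interval of -0.28 to 0.35. Sting1 (Tmem173 in the gene table) had a log2 fold change of 0.16 (-0.14 to 0.46) and Cgas (E330016A19Rik) of -0.06 (-0.77 to 0.64). The groups of all 3 overlapped. These intervals cover transcript levels alone, not the activity of the proteins.

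Senescence genes did not differ beyond the spread of the libraries. Cdkn2a, which encodes the arrest proteins INK4A and ARF, was at 283, 267 and 275 CPM in WT RAS and at 299, 273 and 263 CPM in DKO RAS, above the 86.2 to 154 CPM of WT EV. Its log2 fold change was 0.02 with a 95% interval of -0.40 to 0.43. Cdkn1a, the CDK inhibitor p21, was at 637, 592 and 747 CPM in WT RAS and at 683, 711 and 721 CPM in DKO RAS (0.10, -0.46 to 0.66). Hras (Hras1), which can collect reads from the human transgene, was at 91.3, 102 and 104 CPM against 122, 112 and 90.3 CPM, and at 51.0 to 66.1 CPM in WT EV (log2 fold change 0.13 ± 0.14). No member of the lists of CDK inhibitors and D cyclins, p53 targets, RAS genes or ERK output had an unadjusted p under 0.05, and their medians were 0.04, 0.08, 0.01 and 0.07.

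Many SASP factors were at low counts. Il1a was at 0.864, 0.119 and 0.185 CPM in WT RAS and at 0.198, 0 and 0 CPM in DKO RAS, from 11 counts against 2, and Il1b at 0.432, 0 and 0.278 CPM against 0, 0.101 and 0.0902 CPM, from 7 counts against 2. Both were below the filter on low counts, so neither was tested. WT RAS library 1 held 8 of the 11 Il1a counts and 4 of the 7 Il1b counts. Il6 was at 2.59, 0.476 and 2.69 CPM in WT RAS and at 0.991, 0.710 and 0.812 CPM in DKO RAS, with a log2 fold change of -1.20 and an interval of -3.22 to 0.82. Il1rn, the interleukin-1 receptor antagonist, was at 41.1, 43.7 and 56.3 CPM against 98.4, 45.5 and 59.7 CPM. None of the 7 tested genes of the interleukin-1 list or the 12 of the interleukin-6 list had an unadjusted p under 0.05.

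All 9 tested CC chemokines were lower in DKO (median -0.31, and -0.24 without library 1 of both groups), but apart from Ccl6 and Ccl9 none had an unadjusted p under 0.05. In the CXC list, 2 of 11 did, both lower (0.901% of all tested genes), and the median changed sign from -0.18 to 0.55 without library 1 of both groups. Cxcl10, an interferon-inducible chemokine, was at 14.9, 2.02 and 2.32 CPM in WT RAS and at 1.19, 1.82 and 1.17 CPM in DKO RAS. Pf4, a platelet and macrophage chemokine, was at 8.10, 2.62 and 2.13 CPM against 1.98, 0.912 and 0.632 CPM. The log2 fold changes of Cxcl10 and Pf4 were -2.19 and -1.86, and -0.55 and -1.62 without library 1 of both groups. Cxcl1 had a log2 fold change of 0.74 ± 0.59. Among growth factors, Fgf2 was at 302, 310 and 236 CPM in WT RAS and at 395, 372 and 320 CPM in DKO RAS (a log2 fold change of 0.36 ± 0.15), without overlap. For proteases, Mmp3, a stromelysin that RAS cells expressed strongly (63.9 to 72.6 CPM in WT EV), was at 1345, 1223 and 665 CPM in WT RAS and at 1099, 1650 and 1788 CPM in DKO RAS, with overlap. Timp2, an inhibitor of these proteases, was at 2683, 2702 and 3003 CPM in WT RAS and at 3893, 3056 and 3018 CPM in DKO RAS, without overlap (a log2 fold change of 0.25 ± 0.17). The list of matrix metalloproteinases and inhibitors summed to between 6563 and 7230 CPM for WT RAS, and to between 7899 and 8227 CPM for DKO RAS. These sums did not overlap, but Timp2 and Mmp3 made up much of them. The gap is therefore not a result for the list as a whole. None of its 15 tested members had an unadjusted p under 0.05.

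The pathway of the deleted kinases showed no called gene besides the kinases themselves. Of 31 tested genes of the mTOR complexes and their regulators, 20 were higher and 11 lower, none had an unadjusted p under 0.05, and 28 had a 95% interval within a 2-fold change. Among 13 tested S6 kinase substrates, Eif4b, which helps unwind mRNA leaders, was at 481, 579 and 473 CPM in WT RAS and at 553, 631 and 577 CPM in DKO RAS (a log2 fold change of 0.20 ± 0.14), and Eef2k had one of -0.05 ± 0.11. The related ribosomal S6 kinases, 7 tested genes, had a median of -0.08, with Rps6ka1 at 18, 28.0 and 21.9 CPM against 19.1, 26.8 and 25.3 CPM. Insulin and IGF receptors and substrates had a median of 0.01 over 19 genes, and ATF4 and serine synthesis genes one of 0.01 over 20. Genes of cap-dependent translation summed to 7485 to 7887 CPM in WT RAS and to 7958 to 9324 CPM in DKO RAS, without overlap. Eef2 and Pabpc1 made up much of these sums, with log2 fold changes of 0.18 ± 0.15 and 0.25 ± 0.16. No member had an unadjusted p under 0.05, so the gap is not a result for the list as a whole.

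Genes of the cytoplasmic ribosomal proteins were mostly at a higher fitted level in DKO. Of 78 tested genes 71 were higher and 7 lower, with a median log2 fold change of 0.24, and the DKO libraries lay wholly above the WT libraries for 18 of the 78 against 3.02% of all genes. Rpl13a was at 95.8, 66.9 and 89.5 CPM in WT RAS and at 107, 103 and 116 CPM in DKO RAS (a log2 fold change of 0.37 ± 0.15). Rpl39 was at 93.1, 61.0 and 94.1 CPM against 124, 110 and 116 CPM, and these 2 genes alone had an unadjusted p under 0.05. The sum over the list was at 11361, 9065 and 9469 CPM in WT RAS and at 11319, 11741 and 12113 CPM in DKO RAS, so WT library 1 was within the DKO range. The median was between 0.19 and 0.35 when 1 of the 6 libraries was left out. In S6K1 KO of the other series it was 0.11, where none of these genes had an unadjusted p under 0.05.

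Nuclear genes of oxidative phosphorylation had the same lean, with 72 of 77 higher and a median of 0.16. That median was between 0.07 and 0.28 when 1 of the 6 libraries was left out. The sums over the list overlapped, at 6431 to 8325 CPM in WT RAS and 7786 to 8216 CPM in DKO RAS. Cox7c, a subunit of cytochrome c oxidase, was at 3.46, 2.62 and 5.0 CPM in WT RAS and at 6.24, 5.68 and 6.41 CPM in DKO RAS. Ndufb10, a subunit of complex I, was at 67.5, 51.7 and 61.6 CPM against 81.5, 73.8 and 73.0 CPM. Both lists hold short, abundant transcripts, and many of their members are counted beside processed pseudogenes. The 45 tested ribosome biogenesis genes had a median of 0.10, with all 45 intervals within a 2-fold change. For sterol and fatty acid synthesis, 23 of 29 genes were lower with a median of -0.06, and Acaca was the single member with an unadjusted p under 0.05.

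Cell cycle lists depended on which libraries were compared. The median over 35 mitosis genes was -0.02 with all 6 libraries, and 0.47 without library 1 of both groups, when none of the 35 was lower. Anln, a scaffold of the cleavage furrow, was at 103, 59.4 and 49.0 CPM in WT RAS and at 61.4, 47.8 and 62.9 CPM in DKO RAS, and Kif23 was at 23.2, 10.1 and 8.06 CPM against 14.5, 12.9 and 18.3 CPM. WT RAS library 1 was the highest of its group in both. The 36 DNA replication genes had a median of 0.01, which was 0.26 without both. No gene of either list had an unadjusted p under 0.05, and in S6K1 KO their medians were -0.47 and -0.33.

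No contractile gene and 1 collagen gene had an unadjusted p under 0.05. Of 17 tested contractile genes 16 were lower, with a median of -0.19 (-0.31 without library 1 of both groups). Cnn1, a smooth muscle calponin, was at 92.5, 39.1 and 87.4 CPM in WT RAS and at 35.8, 36.0 and 31.6 CPM in DKO RAS, a log2 fold change of -1.08 ± 0.69 with no overlap. Col4a5, a basement membrane collagen, was the 1 collagen of 35 tested with an unadjusted p under 0.05, at 79.3, 80.4 and 79.2 CPM against 52.7, 58.3 and 67.5 CPM. The contractile median was 0.15 in S6K1 KO.

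**Figure D5:**
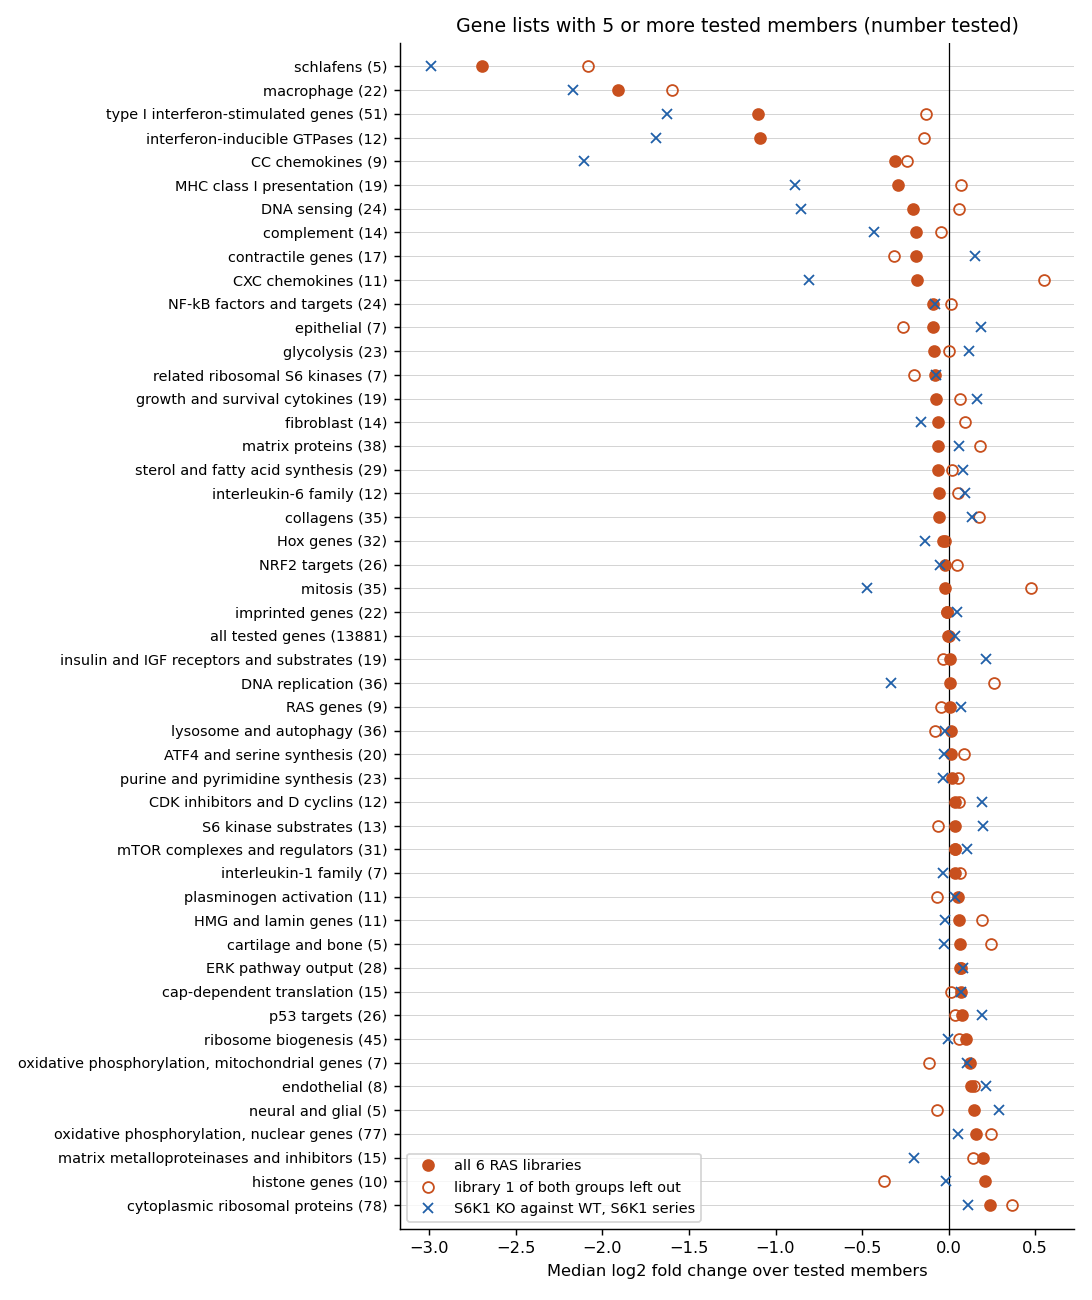
Median log2 fold change over the tested members of each gene list (number tested in brackets) for DKO RAS against WT RAS with all 6 libraries (filled), without library 1 of both groups (open), and for S6K1 KO RAS against WT RAS of the S6K1 series (crosses). Schlafens and macrophage markers lie lowest under all 3, interferon lists move from about -1.1 to about -0.1 when library 1 is left out, and ribosomal proteins lie highest with all 6 libraries (0.24).

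To ask where loss of both kinases differed from loss of S6K1 alone, the DKO effect was set against the S6K1 KO effect in 1 fit over the 18 libraries. Of 14483 genes tested, 1 had a difference with an adjusted p under 0.05 (0.0069%), Rps6kb2 itself, at -3.11 on the log2 scale (adjusted p = 9.10e-07). At an unadjusted p under 0.05 there were 178 genes. Rps6kb2 was at 19.8 to 24.1 CPM in S6K1 KO and at 22.2 to 23.7 CPM in its WT libraries, and the difference for Rps6kb1 was 0.09. En2, at 0 in S6K1 KO and in its WT libraries, had an adjusted p of 1.00 for the difference. Series and batch cannot be told apart in this comparison, and a difference that misses the threshold does not show that DKO and S6K1 KO cells were alike.

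Outside the windows around the targeted genes, 109 genes lower in DKO at an unadjusted p under 0.05 were tested in the S6K1 series, and 97 of them (89.0%) were lower in S6K1 KO. Of 47 such genes higher in DKO, 34 (72.3%) were higher in S6K1 KO. Over all 13550 genes tested in both, 42.3% were lower and 57.7% higher in S6K1 KO, and 54.3% had the same sign. Cultures of the S6K1 series also differed in macrophage marker sum, at 973 to 4821 CPM for its WT RAS libraries against 340 to 1132 CPM for S6K1 KO RAS, and the part of this in the shared direction was not tested.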

How the data were processed

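RNA was extracted with Trizol and sequenced as single-end, stranded mRNA libraries. The authors deposited raw read counts per Ensembl gene, not normalized. Their methods name TopHat, HTSeq and mm9, whereas the submitters' processing notes name CASAVA, STAR 2.7.1a, DESeq2 1.28.1 and mm10, so the build behind the counts is uncertain. Gene positions were looked up by symbol in RefSeq GRCm38.p6 (12972 of 13881 tested genes). Groups came from the labels. Counts of the 9 libraries of the S6K1/S6K2 series (WT EV, WT RAS, DKO RAS) were filtered with filterByExpr (minimum count 10), scaled by TMM and fitted with the quasi-likelihood test of edgeR 4.0.16 in R 4.3.3, with Benjamini-Hochberg adjustment. The interaction fit used all 18 libraries. Intervals are 95%, for the fit or, for counts, exact and for counting error only. DESeq2 1.42.0, limma 3.58.1, other scalings and filters, a replicate block and leaving out libraries were alternatives. The fit was tested on simulated counts with the same dispersion for every gene and no shared library effect. That test does not cover the differences between libraries of a group seen here. Of 55401 identifiers, 32589 had a symbol, with 99.1% of the counts.

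The members and gene lists were chosen with earlier results of these data known. Named genes were the targeted kinases, called genes, the 10 higher and 10 lower genes with the lowest p at a mean of at least 1 CPM, 9 fixed senescence and sensing genes, up to 2 members with the lowest p in each direction of a described list, defining and most counted markers, and genes within 1 Mb of a targeted gene that had an unadjusted p under the threshold of 0.05. Replicate numbers were not taken as pairs, since WT and DKO embryos came from separate breeding and were not littermates. The deviations of same-numbered WT RAS and DKO RAS libraries correlated at 0.28, 0.45 and -0.04. Those of differently numbered libraries correlated at -0.41 to 0.09. With 3 libraries a group, these values cannot show whether the numbers mark pairs. No libraries of a group were alike within sampling noise.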

Additional observations from a re-analysis of the deposited data

Results flagged for a closer look

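Rps6kb2 was the gene whose loss effect differed between the S6K1/S6K2 series and the S6K1 series, by -3.11 on the log2 scale (interaction test of edgeR over 18 libraries, adjusted p = 9.10e-07). It was lower in 3 of 3 DKO RAS libraries than in every WT RAS library, and the S6K1 KO libraries overlapped their WT libraries. Groups of 3 libraries were not tested for outlying samples.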

How the results depend on the processing

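The count of called genes (3) was 10 with DESeq2, 11 with no filter on low counts, 8 with the replicate block (2 of them shared), 7 with all 18 libraries in the fit, 7 with limma-voom, 5 with sex as a term, 1 without library 1 of both groups and 1 to 3 when 1 library was left out. Rps6kb2 was called under each of these. The median of the interferon-stimulated genes was -0.13 without library 1 of both groups and -1.41 to -0.19 with 1 library left out. Its count of lower genes with an unadjusted p under 0.05 (21) was 39 with no filter, 13 under a minimum of 10 counts in every library, 9 with libraries paired in the replicate block, 12 with sex as a term, 0 without library 1 of both groups and 0 to 36 with 1 left out (0 without WT RAS library 1). The same count for macrophage markers (3) was 19, 1, 20, 20 and 0, in that order, 8 with only the 6 RAS libraries and 0 to 8 with 1 left out, and the median was -3.05 to -0.44. The schlafen median was -2.29 under that minimum (2 genes) or with only the 6 RAS libraries, -2.08 without library 1 of both groups and -3.00 to -1.99 with 1 left out. The schlafen count (4, against 0.901% of all tested genes) was 2 under the minimum and 3 to 5 with 1 left out. Within 5 Mb of Rps6kb1 the count (14) was 9 under the minimum and 13 to 16 with 1 left out. The cause of these changes was not tested. The block pairs libraries by number, which the labels do not tie to a shared embryo or day. The alternatives without library 1 of both groups, with sex as a term and with the 5 Mb window were chosen after seeing the data. Of the values of single named genes under the alternatives, 371 kept their direction and side of the threshold, 13 newly passed it, 15 no longer did and 10 uncalled values changed sign. With 3 libraries a group, differences smaller than the intervals given were not detectable.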
